A study of Rattus norvegicus with 4 samples.

Results

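The Toll-like receptor genes Tlr1 to Tlr9 and Myd88, the gene of their shared adaptor, were examined in NR8383 cells, a rat alveolar macrophage line first obtained by lavage of a healthy lung. All array probes were taken whose RefSeq accession belongs to one of these 10 genes, which gave 12 probes of 45598 and all 10 genes of 16581 with a symbol. Tlr6 had 3 probes and every other gene had 1, each printed in a single spot. The cells, described as after 20 passages, had been exposed to 9.25 µg/mL of NiZnFe2O4, an iron oxide that also holds nickel and zinc, during 4 h. Each of 4 biological replicates had its total RNA hybridised to its own one-colour Agilent array. The study design names untreated cells as the control. Control arrays were not analysed here. The values therefore show what exposed cells held and not what the exposure changed. The cells are 1 cell line, grown partly attached and partly floating, and a line can differ from the macrophages of a living lung.

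Toll-like receptors are membrane proteins of innate immune cells that bind conserved molecules of microbes and of damaged cells. Tlr1, Tlr2, Tlr4, Tlr5 and Tlr6 act mainly at the cell surface and bind lipids or proteins, while Tlr3, Tlr7, Tlr8 and Tlr9 sit in endosomes and bind nucleic acids. A bound receptor gathers adaptors through its inner TIR domain. Myd88 serves all of them except Tlr3, passes the signal to kinases of the IRAK family and leads to NF-kB, the transcription factor that switches on cytokine genes. Tlr3 uses the adaptor Ticam1, and Tlr4 uses both.

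The sequences around the transcript starts of the 4 genes well above background on every array, and of Tlr9, which was not, are shown so that the genes can be read beside their values. They run from 250 bases before to 50 bases after the start, are taken from RefSeq on build GRCr8 and are written 5′ to 3′ along the gene. All 10 genes had such a window. Capitals mark matches on either strand to GAGGAA, the core bound by the macrophage factor PU.1, to the NF-kB pattern, which is 3 G, any 5 bases and 2 C, and to the pattern of interferon-regulated genes, which is G and 3 A in 2 copies with any 2 bases between them.
Tlr2 (chr2:171504508-171504807, minus strand): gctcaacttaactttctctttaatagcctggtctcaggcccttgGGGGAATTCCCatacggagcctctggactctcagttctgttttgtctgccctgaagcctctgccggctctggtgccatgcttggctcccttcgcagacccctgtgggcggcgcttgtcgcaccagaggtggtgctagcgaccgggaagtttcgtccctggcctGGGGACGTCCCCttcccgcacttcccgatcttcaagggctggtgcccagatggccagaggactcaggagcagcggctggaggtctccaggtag
Tlr4 (chr5:85160997-85161296, plus strand): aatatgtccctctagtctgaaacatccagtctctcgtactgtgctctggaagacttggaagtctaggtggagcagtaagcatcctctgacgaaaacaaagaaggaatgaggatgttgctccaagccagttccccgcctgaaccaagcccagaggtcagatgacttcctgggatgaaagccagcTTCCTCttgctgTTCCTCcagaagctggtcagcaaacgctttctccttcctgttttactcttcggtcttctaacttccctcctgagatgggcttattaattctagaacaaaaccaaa
Tlr6 (chr14:43715559-43715858, plus strand): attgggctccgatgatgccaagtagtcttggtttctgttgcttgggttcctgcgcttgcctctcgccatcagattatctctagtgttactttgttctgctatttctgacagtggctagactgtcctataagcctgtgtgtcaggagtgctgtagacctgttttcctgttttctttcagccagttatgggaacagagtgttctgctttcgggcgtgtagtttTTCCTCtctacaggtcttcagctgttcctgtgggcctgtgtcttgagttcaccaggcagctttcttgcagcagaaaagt
Myd88 (chr8:127956181-127956480, minus strand): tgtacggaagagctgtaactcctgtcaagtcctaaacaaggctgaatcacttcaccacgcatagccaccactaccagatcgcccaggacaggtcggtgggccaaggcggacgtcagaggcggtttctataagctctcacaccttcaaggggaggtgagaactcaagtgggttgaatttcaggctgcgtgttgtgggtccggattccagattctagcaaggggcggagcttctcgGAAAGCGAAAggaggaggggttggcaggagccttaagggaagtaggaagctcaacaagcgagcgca
Tlr9 (chr8:115743157-115743456, plus strand): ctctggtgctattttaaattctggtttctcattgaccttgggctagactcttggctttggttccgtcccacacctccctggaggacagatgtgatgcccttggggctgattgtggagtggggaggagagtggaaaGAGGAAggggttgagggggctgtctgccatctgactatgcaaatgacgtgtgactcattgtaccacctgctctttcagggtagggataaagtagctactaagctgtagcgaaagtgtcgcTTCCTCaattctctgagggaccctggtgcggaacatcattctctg

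The Tlr2 window held the NF-kB pattern in 2 separate stretches, each made of overlapping matches on both strands. The Tlr4 window held the PU.1 core 2 times and the Tlr6 window 1 time, both on the opposite strand. The Myd88 window held the interferon pattern 1 time, close before the start. Tlr9 held the PU.1 core 2 times, so this core was found in windows of genes above background and of a gene that was not. Over the 10 genes, 6 windows held the PU.1 core, 2 the NF-kB pattern and 1 the interferon pattern. Of 33465 such windows in the rat RefSeq table, 27.6% held the PU.1 core, 47.3% the NF-kB pattern and 3.92% the interferon pattern. A match describes letters in a window and not binding.

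Of the 10 genes, 4 had a probe well above background on all 4 arrays: Tlr2, Tlr4, Tlr6 and Myd88. Over all genes with a symbol the share was 38.7%, so the count as such lies near the background share. Tlr5 passed on 1 array, as 9.85% of all genes did on 1 to 3 arrays. Tlr1, Tlr3, Tlr7, Tlr8 and Tlr9 passed on none, as did 51.4% of all genes. The count of 4 was the same where 3 of 4 arrays sufficed, beside 41.5% of all genes, and 3 where every probe of a gene had to pass, beside 33.2%. By location, 3 of 5 surface receptors and 0 of 4 endosomal receptors passed on all arrays. With 4 and 5 genes these counts are a description. In RNA of a whole culture, fewer cells that hold a transcript and less of it per cell cannot be told apart.

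The flag for well above background is set by the scanner software for each spot. The lowest flagged signal on an array lay between 13.6 and 17.3 intensity units. The arrays also carried negative control spots, between 295 and 305 of them after outliers were left out. None was flagged, and their highest signals were 3.71, 4.96, 5.24 and 5.11 intensity units on replicates 1 to 4. The arrays differed in overall brightness. The 75th percentile over probes was 41.6, 32.7, 23.5 and 24.8 intensity units on replicates 1 to 4, and 24981, 23827, 21812 and 22064 spots were flagged. Log2 levels below are therefore given relative to that percentile of the same array. No spot was saturated, all arrays shared 1 slide and 1 scan time, and no pair had identical values. Signals also depend on the sequence of each probe, so no gene is ranked against another.

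**Figure D1:**
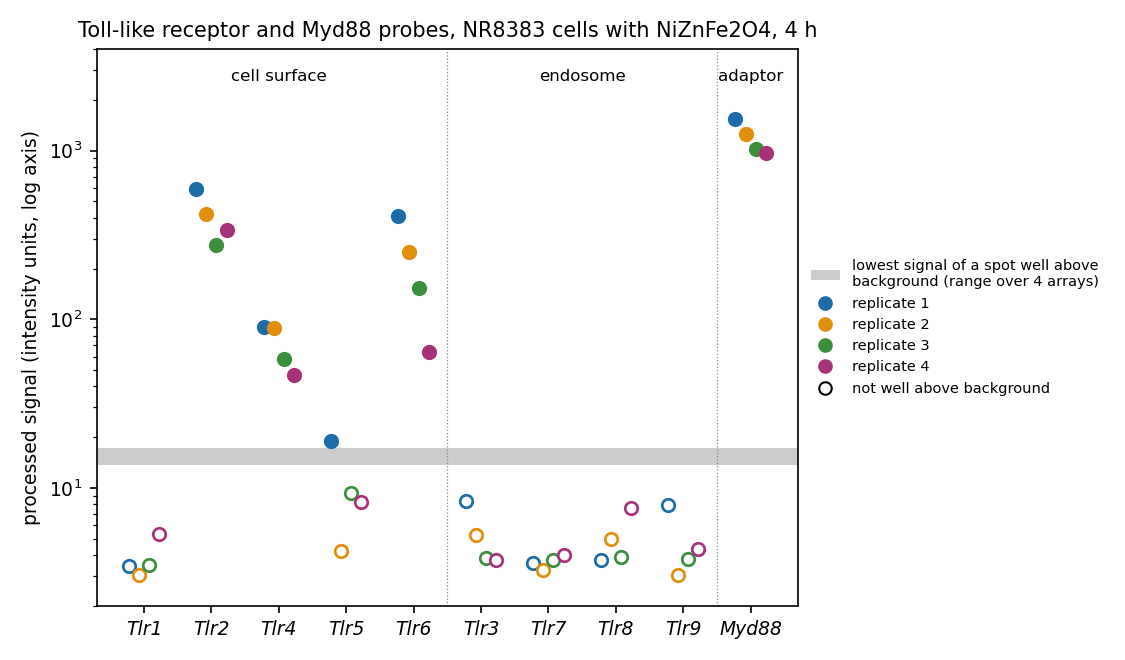
Processed signal in intensity units on a log axis for the 10 genes, with 1 point per replicate and the brightest probe shown for Tlr6. Filled points are well above background and open points are not. Tlr2, Tlr4, Tlr6 and Myd88 are filled on all 4 arrays, Tlr5 on replicate 1, and the endosomal receptors lie below the grey band, the lowest flagged signals of 13.6 to 17.3.

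Myd88, the adaptor, gave processed signals of 1537, 1265, 1029 and 970 intensity units on replicates 1 to 4. All lay far above the flagging limit, and the software's own error for the spot was 10.0% of the signal on every array. After scaling, the log2 level was 5.31 ± 0.10 (SD, n = 4), from 5.21 on replicate 1 to 5.45 on replicate 3. Its SD was at percentile 10.2 of all genes above background. The arrays differed little for Myd88. Its SD was 0.05 without replicate 3, and between 0.10 and 0.13 when another replicate was left out. Of all genes above background, 24.5% were likewise highest on replicate 3.

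Tlr2 recognises bacterial lipoproteins and works as a pair with Tlr1 or Tlr6. Its signals were 596, 419, 275 and 337 intensity units on replicates 1 to 4. The highest was 2.17 times the lowest before scaling and 1.23 times after it. The log2 level was 3.71 ± 0.13 (SD, n = 4), between 3.55 and 3.84, and the SD was at percentile 16.4 of all genes above background. Without replicate 3, the lowest array, the SD was 0.08.

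Tlr4 is the receptor for bacterial lipopolysaccharide. Its signals were 90.4, 88.8, 58.2 and 46.4 intensity units on replicates 1 to 4. Each was flagged, the lowest of them well clear of the 13.6 to 17.3 of the limit. The log2 level was 1.19 ± 0.23 (SD, n = 4), with 0.91 on replicate 4 as the lowest and 1.44 on replicate 2 as the highest. This SD was at percentile 52.6, close to the median SD over genes of 0.23 log2 units.

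**Figure D2:**
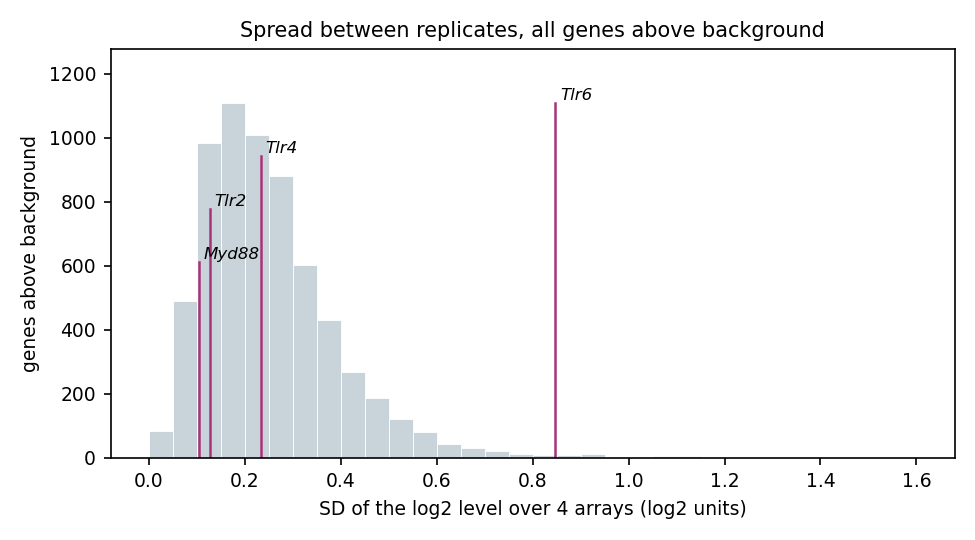
Histogram of the SD of the log2 level over the 4 arrays, in log2 units, for the 6418 genes above background. Vertical lines mark the 4 genes of the set, and line heights carry no value. Myd88 at 0.10 and Tlr2 at 0.13 lie in the lower part, at percentiles 10.2 and 16.4. Tlr4 at 0.23 lies near the median, and Tlr6 at 0.85 lies in the upper tail.

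Tlr6, which pairs with Tlr2 for certain lipopeptides, differed most between arrays. Its brightest probe, A_44_P200968, gave 411, 250, 154 and 63.6 intensity units on replicates 1 to 4. After scaling the highest array was 3.84 times the lowest. The log2 level was 2.58 ± 0.85 (SD, n = 4), an SD at percentile 99.2 of all genes above background, with replicate 4 at 1.36 and the others from 2.71 to 3.30. Without replicate 4 the SD was 0.30.

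A second Tlr6 probe for the same accession, A_44_P1081244, did not show this spread. It gave 102, 91.3, 68.7 and 67.8 intensity units on replicates 1 to 4, flagged on all of them. Its log2 level was 1.44 ± 0.11 (SD, n = 4), and replicate 4 lay 0.01 above the mean of the probe, against 1.22 below for the brightest probe (a deviation of -1.22). The third probe, A_44_P1112671, designed on a predicted transcript, gave 33.0, 23.2, 9.03 and 16.8 intensity units and was flagged on replicates 1 and 2 only. On replicate 4 it lay 0.14 above its own mean, which a log2 level of -1.38 on replicate 3 lowered. Against its own median over the arrays, replicate 4 deviated by -0.03. Of the probes flagged on all arrays, replicate 4 was therefore low for the brightest and not for A_44_P1081244.

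The difference between both flagged Tlr6 probes had an SD over the arrays of 0.89 log2 units. Over the 983 genes with 2 or more probes above background on all arrays, the median of this SD was 0.24 and 13 genes had a larger value. The spot of the brightest probe lies in the last of 164 columns of the array. Of 117 probes above background in the outermost 2 columns on that side, 7 lay more than 1 log2 unit below their own median over the arrays on replicate 4, and 1, 0 and 2 on replicates 1 to 3. Of 642 in the next 10 columns, 5 did so on replicate 4 and 12, 0 and 1 on replicates 1 to 3. Spots within 10 rows and columns of the Tlr6 spot had median deviations of -0.06, -0.01, 0.01 and 0.05 on replicates 1 to 4. The part of the spot's place in the Tlr6 result was not tested. With the mean of the 3 probes the SD was 0.31.

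**Figure D3:**
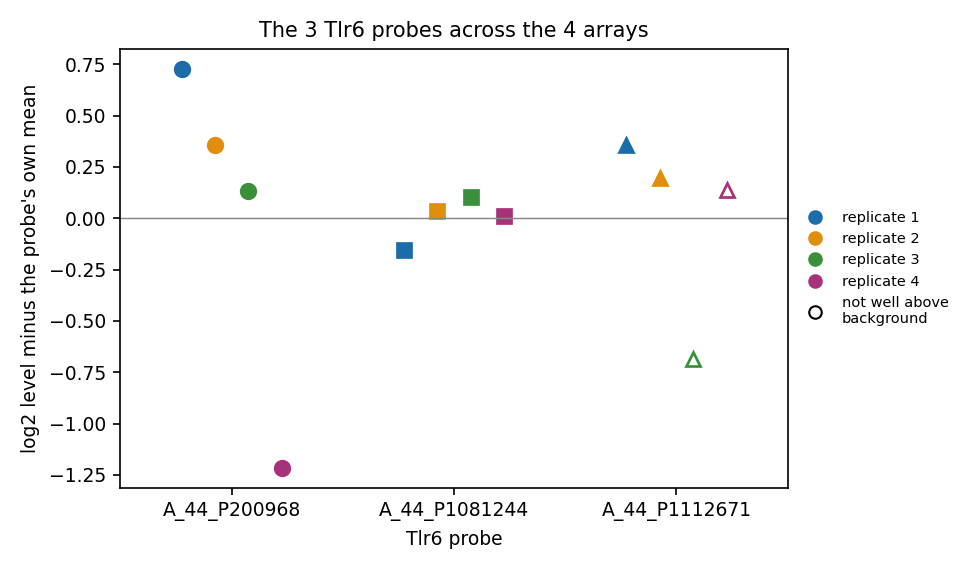
Log2 level of each Tlr6 probe on each array minus the mean of that probe over the 4 arrays. Filled points are well above background and open points are not. The brightest probe, left, is at -1.22 on replicate 4, where the other probes are at 0.01 and 0.14.

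Tlr5 and Tlr1 are the remaining surface receptors. Tlr5, the receptor for bacterial flagellin, gave 19.1, 4.23, 9.35 and 8.25 intensity units on replicates 1 to 4. Replicate 1 alone was flagged, and 3 arrays lay above their highest negative control. Replicate 1 was the brightest array, and of 672 genes flagged on exactly 1 array, 67.4% were flagged on replicate 1. Tlr1, the other partner of Tlr2, gave 3.42, 3.04, 3.48 and 5.32 intensity units, of which only replicate 4 exceeded its highest negative control. In the rat assembly GRCr8 Tlr1 lies between Tlr6 and Tlr10 with no other coding gene among them. Of these neighbours Tlr6 passed on all arrays, and Tlr1 and Tlr10 on none.

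No endosomal receptor passed on any array. Tlr3, the sensor of double-stranded RNA, gave 8.35, 5.22, 3.83 and 3.72 intensity units on replicates 1 to 4, and 2 arrays exceeded their highest negative control. Tlr7, a sensor of single-stranded RNA, gave 3.59, 3.24, 3.76 and 4.00 and exceeded it on 0 arrays. Tlr8, its neighbour on the chromosome and also a sensor of RNA, gave 3.71, 5.00, 3.87 and 7.61 and exceeded it on 2.

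Tlr9, the sensor of unmethylated CpG DNA, gave 7.93, 3.06, 3.81 and 4.36 intensity units on replicates 1 to 4 and exceeded the highest negative control on replicate 1. Signals this low sit near the floor of the software and have no order. They do not show that a transcript was absent. Each endosomal receptor had 1 probe, and a signal also depends on the sequence of the probe. Under the software's looser flag, positive and significant against background, Tlr5 passed on all 4 arrays, Tlr3 and Tlr9 on 3, Tlr8 on 2, Tlr1 on 1 and Tlr7 on 0. Of the 8529 genes well above background on no array, 61.6% passed the looser flag on at least 1. Negative control spots passed it too, 1, 8, 4 and 5 of them on replicates 1 to 4.

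Other genes of the family and pathway were read in the same way. Of 61 listed genes 51 were measured. All 4 arrays flagged 35 of these, some arrays flagged 3, and 13 were never flagged, beside the 38.7% of all genes with a symbol that passed on every array. The further family members were Tlr10, Tlr11, Tlr12 and Cd180, of which 0 passed on all arrays, and Tlr12 passed on 1. Tlr10 gave 5.05, 3.31, 5.05 and 10.9 intensity units on replicates 1 to 4. Cd180, a receptor relative of Tlr4 found on B cells, stayed between 3.11 and 5.48. For Tlr13 no probe matched the symbol, and the same held for Tirap, the bridge between Tlr4 and Myd88, for Ticam1 and for Unc93b1, which carries endosomal receptors to their compartment.

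Most genes for co-receptors and ligand transfer were above background on all arrays, beside 38.7% of all genes with a symbol. Of 5 genes for co-receptors and ligand transfer, 4 passed on all arrays, Cd14, Ly96, Cd36 and Ly86, and Lbp, a serum protein made in liver, passed on none. Ly96 encodes MD-2, the part of the Tlr4 complex that holds lipopolysaccharide. It gave 166, 131, 91.7 and 114 intensity units on replicates 1 to 4 and a log2 level of 2.04 ± 0.11 (SD, n = 4), with 2.20 on replicate 4 and 1.96 to 2.00 on the others. These values are of the brighter of 2 Ly96 probes, both above background on all arrays. The difference between both probes had an SD of 0.13 log2 units. Cd14, which hands lipopolysaccharide to MD-2, gave 36.1, 32.1, 40.4 and 22.0 intensity units. Its log2 level was 0.09 ± 0.46 (SD, n = 4), with 0.78 on replicate 3 against -0.21 to -0.03 on the rest, and without replicate 3 the SD was 0.10. Ly86, the partner of Cd180, thus passed on all arrays and Cd180 on none.

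Most measured genes of receptor folding, trafficking and trimming were above background on all arrays, beside 38.7% of all genes with a symbol. The endosomal receptors passed on no array, and Unc93b1, which carries them to their compartment, was not measured. Of 5 folding and trafficking genes 4 passed on all arrays, and so did all 4 endosomal proteases, Ctsb, Ctsl, Ctss and Lgmn, which trim these receptors. Hsp90b1, the chaperone that folds most Toll-like receptors, had a log2 level of 3.07 ± 0.49 (SD, n = 4), from 2.54 on replicate 2 to 3.72 on replicate 3. Without replicate 3 its SD was 0.28.

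Among the adaptors, 2 of 3 measured genes passed, Ticam2 and Pik3ap1. Over all genes with a symbol 38.7% passed on all arrays and 51.4% on none. Of 15 kinase and ubiquitin ligase genes 11 passed, 1 did so on some arrays and 3 on none. The last were Irak4, Traf6 and Tbk1. Irak1, a kinase of the complex that forms on Myd88, had a log2 level of 1.78 ± 0.30 (SD, n = 4), and 0.20 was its SD without replicate 1. These values are of the brighter of 2 Irak1 probes, both above background on all arrays, whose difference had an SD of 0.62 log2 units. The mean of both probes gave a level of 0.76 and an SD of 0.13. Irak4, the first kinase to join Myd88, gave 12.7, 3.65, 4.88 and 8.17 intensity units on replicates 1 to 4. Traf6, the ubiquitin ligase that follows, gave 16.0, 13.5, 9.26 and 8.87. Both passed the looser flag on all 4 arrays, so their signals lay between the looser and the stricter limit. The Irak4 signals on replicates 2 and 3 were below the highest negative controls of those arrays, 4.96 and 5.24 intensity units.

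**Figure D4:**
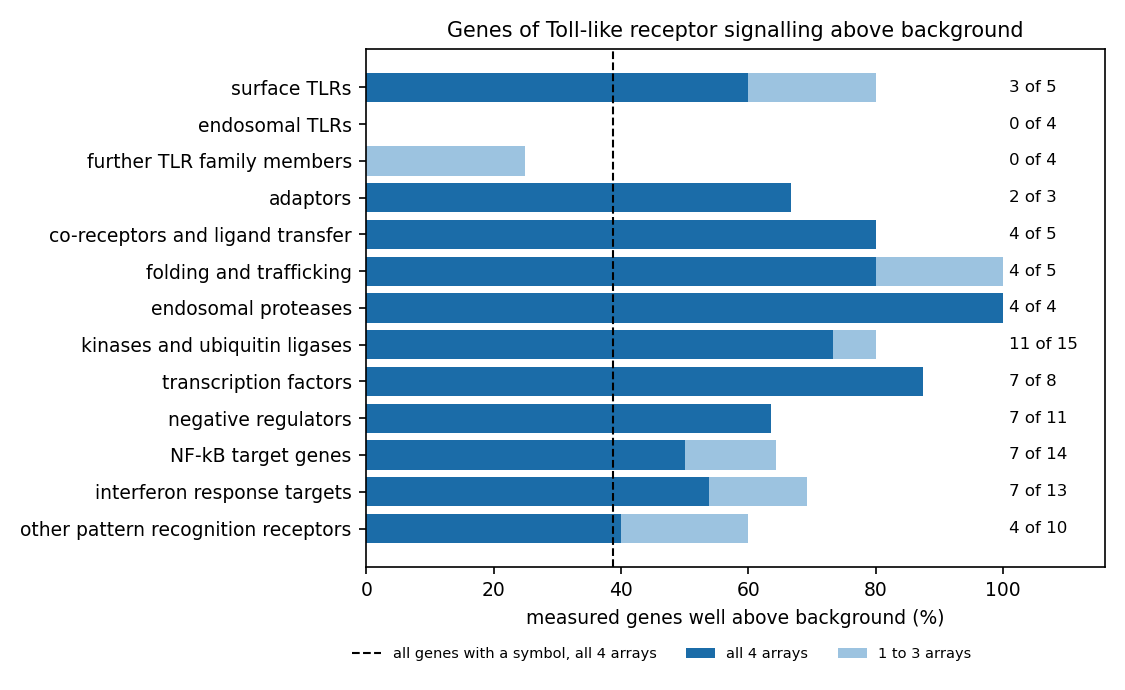
Share of measured genes per list that were well above background on all 4 arrays (dark) and on 1 to 3 arrays (light), in percent, with the counts for all 4 arrays at the right. The dashed line is the 38.7% of all genes with a symbol. The endosomal receptors and the further family members have 0 genes above background on all arrays.

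Of 11 measured negative regulators 7 passed on all arrays and 4 on none, beside 38.7% and 51.4% of all genes with a symbol. Irak3, an inactive relative of the IRAK kinases that damps the signal, gave 395, 339, 213 and 234 intensity units on replicates 1 to 4. Its log2 level was 3.26 ± 0.08 (SD, n = 4), and 0.04 was its SD without replicate 2. Nfkbia, the inhibitor of NF-kB and itself a target gene, stood at 3.90 ± 0.33 (SD, n = 4). Of 8 measured transcription factor genes 7 passed, and Fos did not on any array. Irf7, which drives interferon genes downstream of Tlr7 and Tlr9, stood at 1.92 ± 0.52 (SD, n = 4), with 2.57 on replicate 3. Its SD was 0.34 without that array.

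Of 14 measured NF-kB target genes 7 passed on every array, and of the other genes 2 passed on some arrays and 5 never. Ccl5 and Nos2 passed on some arrays, and Il6, Il12b, Il10, Cxcl1 and Ptgs2 on none. Over all genes with a symbol 38.7% passed on every array, 9.85% on 1 to 3 arrays and 51.4% on none. Il1b, which encodes interleukin 1 beta, had signals from 390 to 684 intensity units, and Tnf, which encodes tumour necrosis factor, from 321 to 498. The SD of the log2 level was 0.12 for Il1b and 0.25 for Tnf, and for Tnf it was 0.14 without replicate 3. The Tnf values are of the brighter of 2 probes, the only one above background on all arrays. The mean of both gave a Tnf level of 1.12 in place of 3.67 log2 units. Of 13 interferon response targets 7 passed, 2 did so on some arrays and 4 on none. Cxcl10, an interferon-induced chemokine gene, stood at 1.64 ± 0.50 (SD, n = 4), and without replicate 3 the SD was 0.28. Ifnb1, the interferon beta gene, gave 3.44, 3.02, 3.52 and 3.46 intensity units, on no array above the highest negative control. The presence of target transcripts says nothing on which receptor, if any, was active. Of 10 measured receptors of other pattern recognition families 4 passed on all arrays, the same count as for the Toll-like receptors and Myd88. Both counts lie near the 38.7% of all genes with a symbol.

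The labelled cell type was checked with marker genes, since other leukocytes also hold Toll-like receptors. Of 15 macrophage markers 10 passed on all arrays, and their summed signals lay between 40371 and 66047 intensity units per array. Most of that sum came from a few genes. On replicate 1 Lyz2, Tyrobp and Fcer1g gave 25487, 23124 and 9754 intensity units. Adgre1, Marco, Cd163 and Cd74 passed on none. Of 7 neutrophil markers 1 passed, Camp, with sums of 76.6 to 153, and of 6 lymphocyte markers 2, Lck and Nkg7, with sums of 97.3 to 194. Of 7 lung epithelial markers 1 passed, Foxj1, with sums of 63.7 to 95.0. Of 5 markers of plasmacytoid dendritic cells, which are rich in Tlr7 and Tlr9, 3 passed, Tcf4, Bst2 and Ccr9, with sums of 1175 to 2421, and Irf8 and Spib did not. Most of that sum was Bst2, at 1087 to 2293 intensity units. The sums add signals of different probes and are not compared between lists. Over all genes with a symbol 38.7% passed on all arrays, and the lymphocyte markers, at 33.3%, lay near that share. Of the remaining lymphocyte markers Cd3d passed on 3 arrays, with 31.8, 19.8, 15.6 and 7.93 intensity units on replicates 1 to 4, and Cd3e passed on none. Of the remaining neutrophil markers S100a8 passed on replicate 1, at 18.9 intensity units, and S100a9 on none. Epcam and Sftpc, of lung epithelium, passed on none. The part of other cell types in the receptor signals was not tested.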

How the data were processed

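Spot values of all 4 arrays came from Agilent Feature Extraction, version 11.0.1.1 according to the submitters' processing notes. What the authors deposited are linear spot intensities, background-subtracted and floored within each array and not scaled between arrays, together with spot flags coded 0 or 1. Per the labels' protocols, 100 ng of RNA was amplified and labelled with Cy3.

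Control spots (4259 per array) and outlier-flagged spots were left out. Spots of a probe were averaged on the log2 scale, and each array's 75th percentile over all probes was subtracted. A probe passed when at least 0.5 of its spots were flagged. A gene passed when 1 probe did so on all 4 arrays, and its level is that of its brightest probe. Accessions were matched without versions to RefSeq transcripts of GRCr8. This named 21109 probes and left 24489 unnamed. The array design names build rn4, so probe coordinates are not given. All genes of the set are described, and of the other lists each count and genes named for their role. Where a count of 5 or fewer is spelled out, its genes were named after their values were seen. Where a gene's SD without 1 named array is given, that array is the one whose removal lowered the SD most. It was picked after the values were seen, and leaving out the most distant of 4 values always lowers an SD. Leaving out another array could raise it, as for Hsp90b1, from 0.49 to 0.60 without replicate 1.

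With 1 group there was no test between groups. The labels call the samples biological replicates. The genes and lists were chosen with earlier results of these data known, and the promoter patterns and the split by location after the values were seen. Steps were tested on simulated data (Python 3.11.15, numpy 2.4.6, pandas 2.3.3). The normexp alternative used limma 3.58.1 in R 4.3.3. The number of arrays limits the precision.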

Additional observations from a re-analysis of the deposited data

Results flagged for a closer look

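Of 14 genes of the report above background, the log2 level of Ly96 was the only one with an array further apart from the rest than Dixon's 95% critical value for 4 samples allows. For the brighter of 2 Ly96 probes, the gap of replicate 4 to the next array was 0.831 of the whole range. The range itself was narrow, from 1.96 to 2.20, and the SD was 0.11, or 0.02 without replicate 4. Chance gives about 1 such value in 20 groups, and over all 6418 genes above background 4.91% exceeded the limit.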

How the results depend on the processing

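No paired analysis was possible because the samples form 1 group. The count of 4 genes of the set above background was 5 with the looser flag, where 50.9% of all genes passed, 3 when every probe of a gene had to pass (33.2% of all genes), and 4 when 3 of 4 arrays sufficed or any replicate was left out. The count of 35 pathway genes was 42, 29 and 35 under the same changes, and 35 to 35 when any replicate was left out. The median SD of the 4 genes was 0.18 log2 units. It was 0.48 without scaling, 0.27 with normexp and an offset of 50, and 0.47 with no filter on dim probes, where all 10 genes enter. It lay between 0.16 and 0.19 when a replicate was left out, at 0.22 with the percentile over probes above background, at 0.20 with quantile normalization, at 0.18 with the local trend removed and with the mean of all probes, and at 0.12 with the other flagged Tlr6 probe, an alternative chosen after seeing the data. Without scaling the unequal brightness of the arrays stays in the SD, and for normexp the cause was not tested. Of 140 recomputed SDs of single genes, 110 moved by less than the standard error of an SD from 4 values. Levels moved with each other scaling, which sets another zero. With the mean of all probes, at the same scaling, 4 of 14 levels moved: Tlr6 from 2.58 to 1.11, Irak1 from 1.78 to 0.76, Tnf from 3.67 to 1.12 and Ly96 from 2.04 to 1.83. These 4 were the only genes of the 14 with more than 1 probe, so the mean of all probes could move no other level. The 140 SDs likewise include genes with 1 probe, whose SD that setting could not change. Signals near the floor limit what can be said of the 6 genes not above background.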

Other observations

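The array with the highest level differed between genes. Tlr2 and the brightest Tlr6 probe were highest on replicate 1, Tlr4 on replicate 2 and Myd88 on replicate 3. The other flagged Tlr6 probe was lowest on replicate 1, at 1.29, and highest on replicate 3, at 1.55. Of the 35 pathway genes above background 12 were highest on replicate 3, beside 24.5% of all genes above background. These were Cd14, Ly86, Hsp90b1, Slc15a4, Ube2v1, Chuk, Ikbke, Rela, Irf5, Irf7, Jun and Nfkbia. Another 10 of the 35 were highest on replicate 4. Over all 6418 genes above background, replicate 4 was highest for 2382 and replicate 3 for 1575. Of the 7 NF-kB target genes above background 1, Tnf, was highest on replicate 3. Of the 7 interferon response targets above background 2 were, Cxcl10 and Irf1. The count of 12 was also found with the percentile over probes above background, where 20.8% of all genes were highest on that array, and was 13 with quantile normalization, where 23.0% were.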
